A study of Mus musculus with 15 samples.

Results

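The 200 probes described here read the transcripts whose signal in mouse liver most exceeds that in a reference RNA and whose excess was alike in newborn and adult control livers. They were chosen from 42006 probes by 2 steps on the 6 control arrays. Of all probes, 28471 had a mean log2 ratio of liver over reference that differed by less than 0.5 between newborn and 10 week control mice, and the 200 of these with the highest mean ratio were taken. Their levels and their age difference in control mice are therefore descriptions, and no test was made on them alone.

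Liver RNA from 15 mice was measured in 5 groups of 3. According to the methods the mice of the control and prenatal arsenic groups each came from a litter of their own, and the litters of the postweaning mice are not given in the sources used here. PND1 control and PND70 control mice came from dams on arsenic-free tap water and were killed on the day of birth or at 10 weeks. PND1 arsenic and PND70 prenatal arsenic mice came from dams whose water held 85 mg/L of sodium arsenite, or 49 ppm as arsenic, between gestational day 8 and birth, and had tap water afterwards. PND70 postweaning arsenic mice drank the same dose from PND21 until 10 weeks and had no prenatal exposure. The labels give the strain as C57/BL6J, whereas the methods name the apolipoprotein E knockout B6.129P2-Apoe tm1Unc/J, so that a knockout may be shared by all groups. Each array carried liver RNA labelled with Cy3 and a pool of RNA from mouse cell lines labelled with Cy5.

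Liver is dominated by hepatocytes, which make most plasma proteins, bile acids and the enzymes of intermediary metabolism, and transcripts of these products are among the most abundant of the tissue. Newborn liver also houses blood-forming cells, which leave after birth. The reference pool includes a line of liver origin, and a high ratio marks a transcript that is much more abundant in whole liver than in a mixture of dividing cell types. In total liver RNA, fewer cells of a type and less RNA per cell cannot be told apart. The files give each probe a sequence and an identifier and no gene name, so neither hepatocyte markers nor any pathway could be looked up, and the labelled tissue was not checked against its markers.

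Sequences of the probes that the results turn on are printed here, 5′ to 3′ as the array files give them. The first 3 had the smallest p-values in the postweaning or newborn arsenic comparison, and are in lower case throughout.
Z00024586-1: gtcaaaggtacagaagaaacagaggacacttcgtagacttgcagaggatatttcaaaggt
Z00018759-1: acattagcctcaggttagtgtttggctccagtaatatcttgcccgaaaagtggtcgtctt
Z00056720-1: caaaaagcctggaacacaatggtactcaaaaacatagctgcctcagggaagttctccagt

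A pair of overlapping members and a pair of partly alike probes are shown for comparison of their levels, and capitals mark the longest run that the 2 probes share. Z00027800-1 and Z00059608-1 are both among the 200 and share 37 bases.
Z00027800-1: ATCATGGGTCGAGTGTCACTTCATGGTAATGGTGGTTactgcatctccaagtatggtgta
Z00059608-1: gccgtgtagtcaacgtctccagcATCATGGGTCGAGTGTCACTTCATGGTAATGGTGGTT
Z00023413-1 is among the 200, and Z00031577-1, which shares 21 bases with it and differs around them, is not.
Z00023413-1: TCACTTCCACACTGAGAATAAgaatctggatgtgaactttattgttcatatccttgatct
Z00031577-1: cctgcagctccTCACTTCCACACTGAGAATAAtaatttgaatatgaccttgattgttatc

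The overlapping pair gave like levels. The ratio of liver over reference from the scanner software's processed signals, written here as the processed log2 ratio, averaged 3.66 over the 6 control arrays for Z00027800-1 and 3.30 for Z00059608-1. Both changed alike with age in exposed mice, as given further on. The pair with different flanks did not. Z00023413-1 had a processed log2 ratio of 4.04 in PND1 control and 4.29 in PND70 control livers, whereas Z00031577-1 had 0.91 and 2.31, so that it missed the age limit as well as the level.

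In all, 8 of the 200 probes shared at least 20 bases with another probe of the array, 6 of them with another of the 200 in 3 pairs. The pair with the longest overlap, Z00036197-1 and Z00060221-1, shared 53 bases and had processed log2 ratios of 3.18 and 3.13. The pair with the shortest, Z00055375-1 and Z00025320-1, shared 21 and had 5.88 and 5.07. Z00073763-1 shared 29 bases with Z00072993-1, which fell just outside the limit of 200, and the ratios were 3.24 and 2.82.

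Base composition was near that of the whole array. Their median GC content was 45.0%, against 43.3% over all 42006 probes. The polyadenylation signal AATAAA, searched on the printed strand, lay in 9.50% of the 200 and 6.75% of all probes, and on the opposite strand in 2.50% and 3.42%. At least 1 reading frame without a stop codon was found in 83.0% and 83.2%.

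Only 1 of the 200, Z00055649-1, matched whole to the promoter windows of RefSeq (GRCm38.p6, from 250 bases before to 50 after each gene's start), which held 289 of all probes. It is shown because it is the only member placed in the genome by this search, which was limited to those windows.
Z00055649-1: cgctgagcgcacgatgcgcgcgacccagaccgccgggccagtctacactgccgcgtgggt
It lies on the plus strand at chr15:99590881-99590940, within the annotated long non-coding RNA gene Gm34765 and 88 bases before the annotated start of Aqp5, a water channel gene that begins at 99591028. Whether it is exonic there could not be read from the tables used, and its GC content was 73.3%.

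The 200 probes spanned a wide range of levels in control liver. Their mean processed log2 ratio corresponded to a median of 18.4-fold more signal in liver than in the reference, from 7.34-fold to 141-fold, with 44 probes above 32-fold, 110 above 16-fold and 190 above 8-fold. Their liver signals were bright, with a median at the 97.3rd percentile of all probes and the lowest at the 59.8th. Their reference signals were not unusually dim, with a median at the 61.8th percentile and a range from 1.38 to 98.8. All 200 were above the 95th percentile of negative control spots in the liver channel on all 15 arrays, and 199 in the reference channel.

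Saturation touches a few of the brightest. The liver signal reached the scanner's ceiling on at least 1 array for 14 of the 200 probes and on all 15 arrays for 4 of them, and no reference signal did. For a saturated spot the ratio is a lower bound. Spots marked as outliers, set missing in the fits, occurred for 3 of the 200, on 1 array each.

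Z00022812-1 had the highest ratio. On the PND1 control arrays its processed log2 ratio was 7.08, 7.20 and 6.98, and on the PND70 control arrays 7.19, 7.17 and 7.26. In PND1 arsenic livers it was 6.75, 6.73 and 6.56, below all control arrays, whereas the normalized log2 ratios used for the tests overlapped at PND1 (6.36, 6.74 and 6.47 in control, 6.44, 6.29 and 5.84 in arsenic livers). In PND70 prenatal arsenic livers it was 7.46, 7.32 and 7.23, and in postweaning livers 7.28, 7.12 and 7.04, where both groups overlapped the controls. The next 9 by control mean were Z00061463-1 (6.88), Z00051409-1 (6.62), Z00024719-1 (6.59), Z00051393-1 (6.54), Z00025366-1 (6.34), Z00030680-1 (6.20), Z00024586-1 (6.17), Z00025411-1 (6.17) and Z00022428-1 (5.94). Of these 10, Z00025366-1 was saturated on 3 arrays, Z00024586-1 on 4 and Z00025411-1 on 14.

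**Figure D1:**
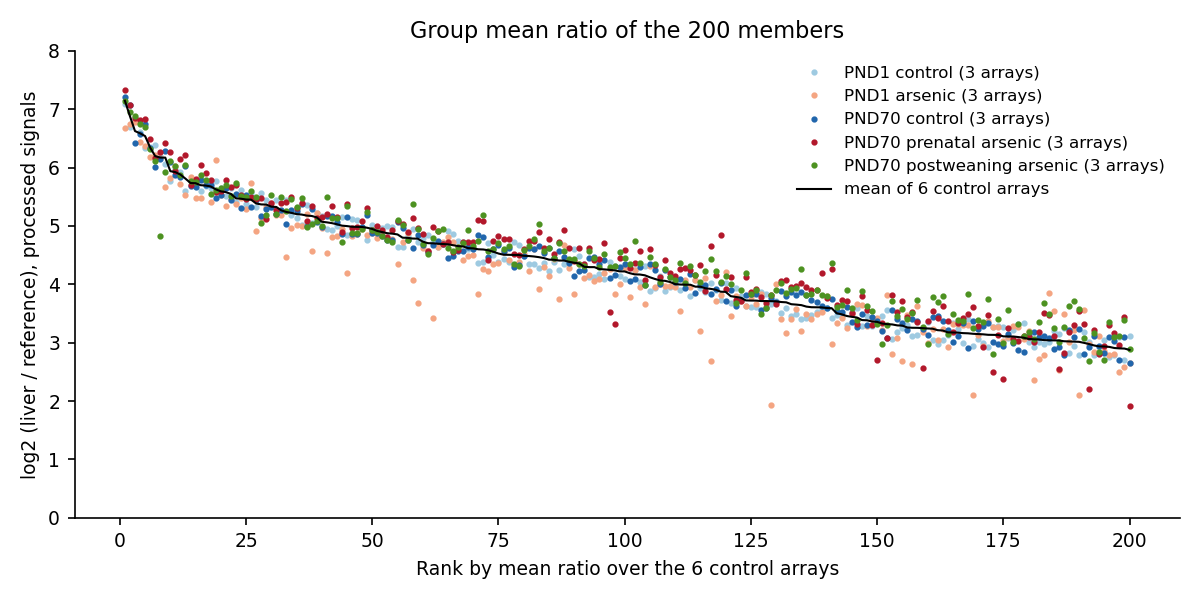
Mean processed log2 ratio of liver over reference (vertical axis) for each of the 200 probes, ordered by their mean over the 6 control arrays (horizontal axis, black line), with 1 point per group of 3 arrays. The line falls from 7.14 to 2.88, and of the 6 points farthest below it 5 are PND1 arsenic means. The low postweaning mean at rank 8 belongs to Z00024586-1 and is a lower bound, because its liver signal was saturated on those arrays.

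The limits of the selection were shallow. The last 3 probes inside were Z00027806-1, Z00044614-1 and Z00072133-1, at 2.90, 2.90 and 2.88, and the first 3 outside were Z00025550-1, Z00072993-1 and Z00024853-1, at 2.85, 2.82 and 2.82. Closest inside the age limit were Z00056606-1 (-0.50), Z00011114-1 (0.49) and Z00014249-1 (-0.49), given as PND70 minus PND1 in controls. Just outside it, at a level that would have qualified, were Z00026329-1 (0.51), Z00011160-1 (-0.51) and Z00000956-1 (0.51). Of the 490 probes with a control mean at least as high as that of the last member, 290 were left out by the age limit, 204 of them higher and 86 lower in adult controls. Stable members are thus a minority among the most liver-enriched probes.

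The level of the 200 as a group moved little on this scale. The median over the probes of the group mean was 4.134 in newborn control and 4.003 in newborn arsenic livers. At PND70 it was 4.23 in control, 4.41 in prenatal arsenic and 4.34 in postweaning arsenic livers, where the median over all probes lay between -0.03 and 0.00 in every group. By array, the median over members was 4.249, 4.213 and 4.001 in newborn controls and 3.87, 4.07 and 4.10 in exposed newborns. At PND70 it was 4.27, 4.18 and 4.23 in control, 4.45, 4.40 and 4.37 in prenatal arsenic and 4.36, 4.32 and 4.39 in postweaning arsenic livers. The newborn groups overlapped, and at PND70 all 6 exposed arrays lay above the 3 controls on this scale. On the normalized log2 ratio the PND70 medians were 4.29, 4.25 and 4.35 in control, 4.35, 4.30 and 4.29 in prenatal and 4.28, 4.34 and 4.26 in postweaning arsenic livers, with overlap. The median of the group means was lower at birth on that ratio, at 3.76 in control and 3.74 in arsenic livers. At PND70 it was 4.25 in control, 4.30 in prenatal and 4.29 in postweaning arsenic livers.

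Spread between mice was larger at birth. For a member, the median SD within a group of 3 was 0.21 at PND1 without and with arsenic, against 0.14 and 0.13 over all probes. At PND70 it was 0.12 in control, 0.09 in prenatal and 0.10 in postweaning arsenic livers, against 0.12, 0.08 and 0.10 over all probes. An SD above 0.3 was found for 66 and 69 of the 200 in the newborn groups (14.3% and 13.8% of all probes). In adult livers it was found for 25, 17 and 19 (9.38%, 3.87% and 5.58% of all probes). On the normalized log2 ratio the median SD of the members was above that of all probes in every group, at 0.21 against 0.11 and 0.20 against 0.09 in newborn control and arsenic livers. In adult livers it was 0.13 against 0.10 in control, 0.09 against 0.07 in prenatal and 0.11 against 0.08 in postweaning arsenic livers.

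**Figure D2:**
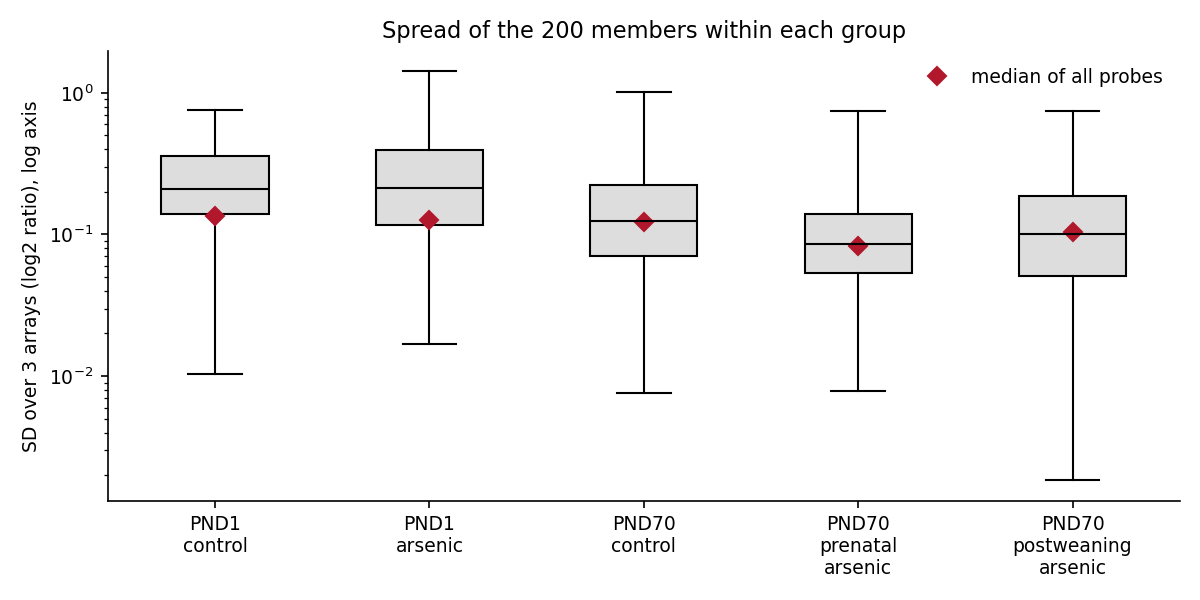
SD of the processed log2 ratio over the 3 arrays of each group (vertical log axis) for the 200 probes, drawn as a box of the quartiles with the median line and whiskers to the extremes, with red diamonds for the median of all 42006 probes. The member medians are 0.21 in both newborn groups, above the diamonds, and 0.09 to 0.12 in the adult groups, near them.

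The steadiest members were Z00005294-1, Z00022442-1 and Z00002060-1, with pooled within-group SDs of 0.044, 0.059 and 0.062. Z00005294-1 read 3.93, 3.99 and 3.89 in PND1 control livers and 3.79, 3.84 and 3.76 in PND1 arsenic livers. At PND70 it lay between 3.58 and 3.80 on all 9 arrays. The groups of this probe were tight within an age while the newborn control values lay above all others.

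The most variable were Z00034904-1 (0.77), Z00022623-1 (0.67), Z00061259-1 (0.67), Z00043445-1 (0.66) and Z00029674-1 (0.57). Z00034904-1 read 3.14, 4.49 and 4.42 in PND1 control livers and 3.97, 2.19 and 1.92 in PND1 arsenic livers. In PND70 control livers it read 4.71, 3.76 and 3.01, and in prenatal arsenic livers 5.21, 4.07 and 4.70. Z00061259-1 read 6.19, 5.89 and 5.23 in PND1 control livers, 5.26, 6.15 and 6.98 in exposed newborns and 6.64, 4.75 and 5.06 in PND70 control livers. Z00043445-1 read 3.70, 3.11 and 2.96 in newborn controls, 1.91, 4.19 and 4.38 in exposed newborns and between 2.48 and 3.49 on the 9 PND70 arrays. For Z00034904-1 and Z00061259-1 a wide range among arrays of 1 group was thus present in controls of both ages as well as in exposed newborns.

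Whether these transcripts also kept their level from birth to 10 weeks in mice exposed before birth was asked as a difference between 6 arrays that the selection did not use. For this and all later tests the intensities were normalized between arrays, which gives the normalized log2 ratio. All 42006 probes were fitted in limma with a threshold of an unadjusted p of 0.01. The normalization and the estimate of spread drew on all 15 arrays, so the control arrays entered them. In exposed mice 113 of the 200 probes differed between PND70 and PND1, against 43.5% of all probes. They were almost all higher in the adult, 110 against 19.8% of all probes, and 3 were lower, against 23.6%. At a Benjamini-Hochberg adjusted p of 0.05, limma called 123, against 49.8%. When only the groups compared were fitted, 107 passed the unadjusted threshold, against 42.6%. Of 200 members chosen in the same way on the normalized ratio 56 differed, fewer than the 43.5% of all probes, with 50 higher, still above the 19.8%, and 6 lower, below the 23.6%. The median difference over the 200 was 0.49, against -0.02 over all probes, and 166 of 200 were above 0.

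For the members as chosen, the size of the rise also depended on the scale on which it was measured. On the processed log2 ratio, 71 of the 200 were higher in exposed adults (21.9% of all probes) and 2 lower (20.7%), the median difference was 0.26, and 143 of 200 changed by less than 0.5. In control mice the median difference was 0.06 on the processed ratio, where the age limit had been set, and 0.48 on the normalized ratio, with 175 of 200 above 0 and 102 within 0.5. Stability from birth was thus found on the processed ratio of controls, where the choice imposed it. In exposed mice 57 of 200 changed by more than 0.5 on that ratio and 156 lay above 0. All PND1 arrays were extracted from their images on 1 day and all PND70 arrays on another, so age and extraction day cannot be told apart.

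Z00027800-1 and its overlapping partner Z00059608-1 rose by 0.83 (standard error 0.08, limma adjusted p = 1.78e-06) and by 0.71 (standard error 0.09, limma adjusted p = 2.67e-05) in exposed mice. The largest rises in exposed mice were those of Z00022623-1 (2.11, standard error 0.46, limma adjusted p = 0.00190), Z00070620-1 (1.91, standard error 0.30, limma adjusted p = 0.000161) and Z00034904-1 (1.81, standard error 0.62, limma adjusted p = 0.0258). Each of these 3 had low values in PND1 arsenic replicates 2 and 3. The 3 probes lower in exposed adults, named because they are so few, were Z00022511-1 (-0.81), Z00022650-1 (-0.63) and Z00030640-1 (-0.34).

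A ratio can also stay level while both of its channels move. The reference RNA was the same on every array, and its quantile normalized log2 signal was compared between ages beside that of the liver channel. In exposed mice the liver channel alone changed by more than 1 for 71 of the 200 probes, 62 upwards and 9 downwards, and for 11.4% of all probes. For 49 of these 71 (69.0%) the reference channel moved the same way by more than 0.5, against 21.8% of such probes over the whole array. Where the liver channel rose by more than 1, its median rise was 1.59 and that of the reference channel 0.73. In control mice the liver channel changed by more than 1 for 65 members, of which 44 (67.7%) had a like shift in the reference, against 38.9% over the whole array. The rule, which keeps probes whose control ratio is level, selects for such paired shifts in controls.

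Counted on the liver channel alone, 82 of the 200 members changed by less than 0.5 between PND1 and PND70 in controls (64.2% of all probes) and 72 in exposed mice (69.3%). Z00025941-1, named after its values were seen, had the largest change in the liver channel in controls, a rise of 3.49 beside a rise of 3.59 in the reference channel (quantile normalized log2 signals). Its liver signal was saturated on all 9 PND70 arrays and on no PND1 array, so the rise of the liver channel is a lower bound. Z00024586-1 showed the same. Its log2 processed liver signal averaged 15.92 in PND1 control and 18.43 in PND70 control livers, and its reference signal 9.72 and 12.29, so that the ratio was 6.20 and 6.14. The reason for the shared movement of the channels was not tested.

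**Figure D3:**
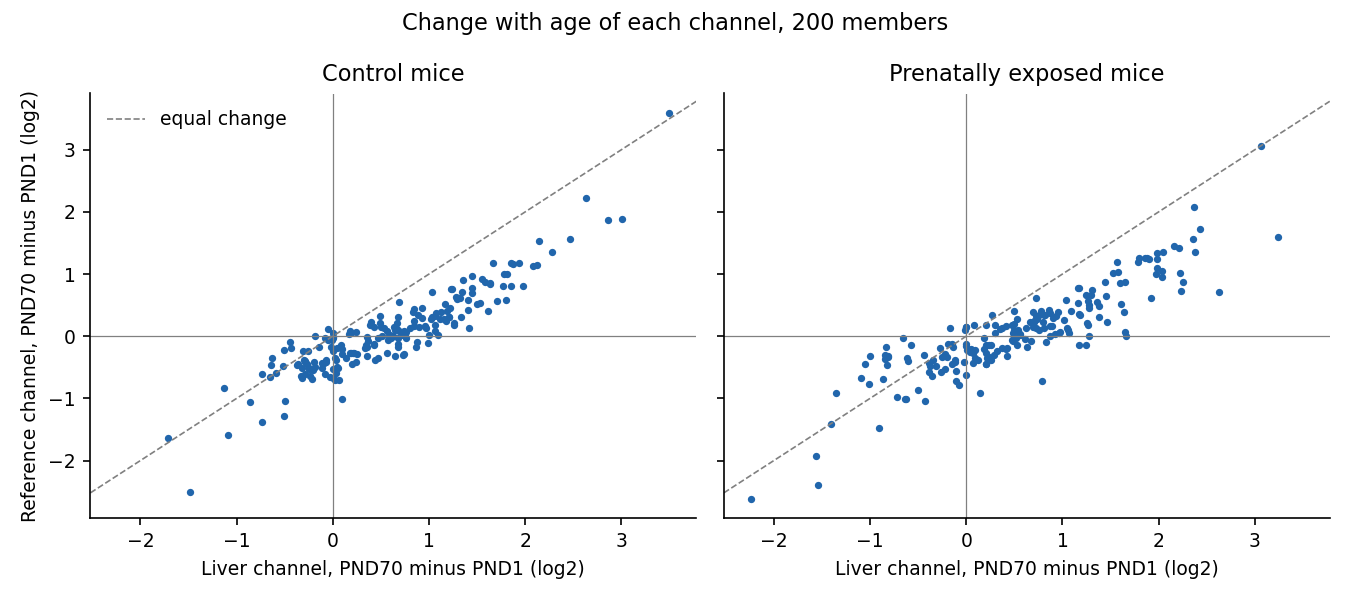
Change from PND1 to PND70 of the quantile normalized log2 signal in the liver channel (horizontal axis) and in the reference channel (vertical axis), with 1 point per probe for the 200 probes, in control mice (left) and prenatally exposed mice (right); the dashed line marks equal change. Of the points beyond 1 in size on the horizontal axis, 44 of 65 (left) and 49 of 71 (right) lie beyond 0.5 on the vertical axis in the same direction, and the point at the upper right of the left panel is Z00025941-1.

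The response to prenatal arsenic was then compared at each age. The members were chosen for high ratios on the control arrays that enter these comparisons, so the comparisons are not independent of the choice. A member high by chance in controls is biased towards a fall in exposed livers. At PND1, 17 of the 200 differed between arsenic and control livers, against 3.31% of all probes. Of these, 6 were higher, against 2.01%, and 11 lower, against 1.3%. None passed an adjusted p of 0.05 in limma (0.0452% of all probes did), 48 had an unadjusted p below 0.05 (11.5% of all probes), and the smallest adjusted p was 0.125. The differences ranged from -1.56 to 0.92, with a median of -0.01 and a median size of 0.16, against 0.08 over all probes. The excess over the array was absent when only the 2 groups compared were fitted, where 2 members were called against 0.947% of all probes, and it was small with unmoderated variances, where 5 were called against 2.24%.

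The balance of directions at PND1 differed between the scales. On the processed ratio 22 members were lower (1.26% of all probes) and 0 higher (1.85%). Of these, 1 passed the adjustment in limma, for which no share of all probes is given. On that ratio 47 had an unadjusted p below 0.05 (11.1% of all probes) and the median difference was -0.09. The rule had ranked the members on that same ratio of these control arrays, so no conclusion was drawn from the direction. The values of exposed and control livers did not overlap for 8 members that were higher (6.69% of all probes) and 11 that were lower (5.5%) on the normalized ratio.

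Z00056720-1 had the smallest p. Its normalized log2 ratio was 4.14, 4.40 and 4.23 in PND1 control and 3.99, 3.59 and 3.35 in PND1 arsenic livers, a difference of -0.61 (standard error 0.13, limma unadjusted p = 0.000375, adjusted p = 0.125). All 3 exposed values lay below the controls. The unadjusted threshold was passed under all 17 alternatives, with adjusted p-values from 0.00102 to 0.766 (limma). On the liver channel alone the difference was -0.98. Its log2 processed reference signal averaged 10.67 in control and 10.40 in exposed newborns. Over the members, the reference channel differed by more than 0.5 between exposed and control newborns for 18 (9%), against 0.809% of all probes.

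Z00021939-1 read 3.14, 3.00 and 2.78 in control and 2.61, 2.17 and 2.59 in exposed newborns, without overlap, a difference of -0.52 (SE 0.12, adjusted p from limma 0.164, 0.0248 to 0.766 over the alternatives). It was saturated on 8 arrays, all at PND70, so the newborn difference was within the scanner's range, but its standard error drew on the saturated arrays. When only the groups compared were fitted, the unadjusted p in limma was 0.0117, above the threshold. Z00070620-1 read 4.21, 4.56 and 4.47 in controls and 4.25, 3.07 and 2.46 in exposed newborns, a difference of -1.15 (SE 0.30, adjusted p from limma 0.205, 0.000165 to 0.766 over the alternatives). Here 1 exposed liver lay among the controls and the other 2 far below them.

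That division recurred. Z00022623-1, with the largest difference of all members (-1.56, standard error 0.46, limma adjusted p = 0.259), read 3.46, 3.09 and 3.74 in controls and 3.45, 1.30 and 0.86 in exposed newborns. Z00025825-1 read between 4.87 and 5.17 in controls, within that range in PND1 arsenic replicate 1, and 4.06 and 3.49 in replicates 2 and 3. In both, PND1 arsenic replicate 1 read like the controls, and replicates 2 and 3 were low. Over the 200 members, replicate 1 lay inside and replicates 2 and 3 below the control range for 20 (6.27% of all probes), and for 25 replicates 2 and 3 both lay above it (6.45% of all probes). Without PND1 arsenic replicate 1, the members called at PND1 numbered 36 rather than 17, with 12 higher and 24 lower. The share of all probes called rose as well, to 7.85%. In that fit 25 members passed the adjustment (limma), for which no share of all probes is given. Without PND1 arsenic replicate 2 or 3 the members called numbered 9 and 8 (2.26% and 2.13% of all probes). Without PND1 control replicate 2 or 3 they numbered 9 and 11 (3.61% and 3.68%).

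The 3 higher members with the smallest p showed smaller changes. Z00024238-1 read 3.04, 2.84 and 2.92 in controls and 3.19, 3.21 and 3.11 in exposed newborns, a difference of 0.23 (SE 0.07, adjusted p from limma 0.241, 0.146 to 0.906 over the alternatives). Z00030640-1 read 3.56, 3.22 and 3.33 against 3.53, 3.95 and 3.78, a difference of 0.38 (SE 0.11, adjusted p from limma 0.241, 0.0189 to 0.766). Z00004974-1 read 2.99, 2.55 and 2.63 against 2.83, 3.38 and 3.25, a difference of 0.43 (SE 0.13, adjusted p from limma 0.275, 0.0118 to 0.766). Only Z00024238-1 separated the groups without overlap. It passed the unadjusted threshold under 7 of 17 alternatives, and each of the other 2 under 6 of 17. The difference of Z00024238-1 was 0.06 on the processed ratio, 0.07 without the quantile step and 0.10 on the liver channel alone.

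**Figure D4:**
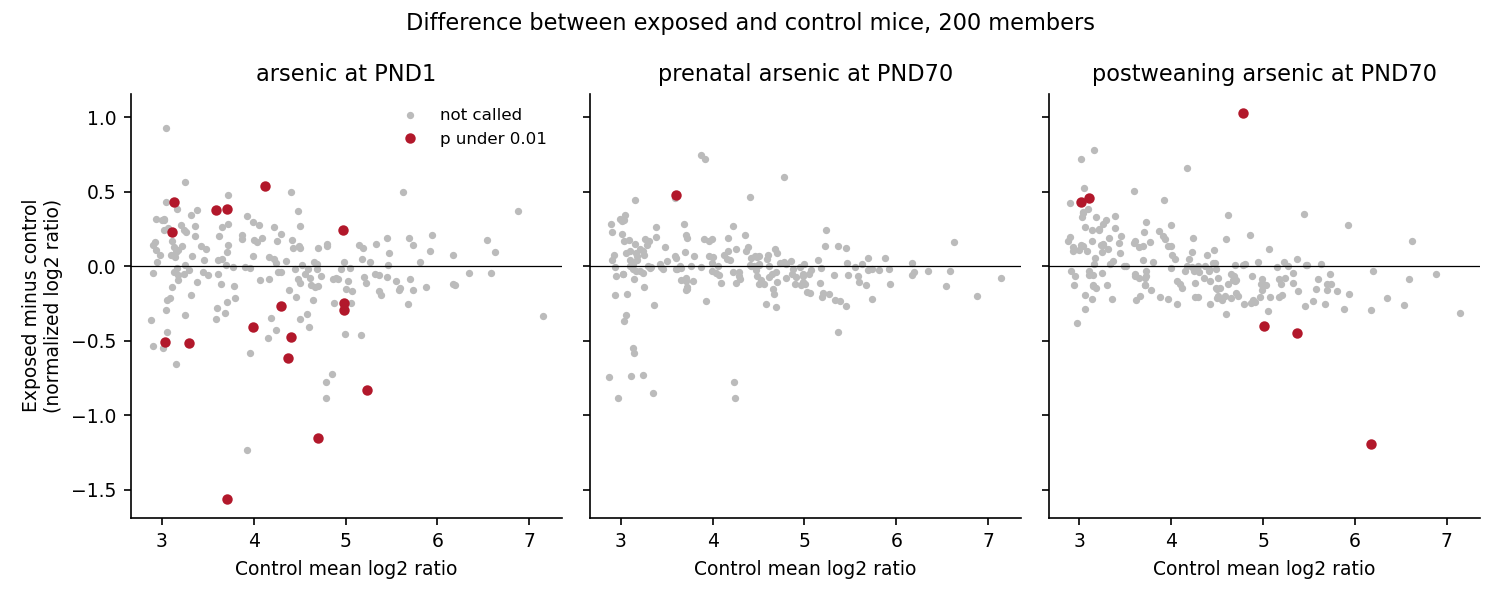
Difference of the normalized log2 ratio between exposed and control livers (vertical axis) against the processed log2 control mean (horizontal axis) for the 200 probes in each comparison, with probes at an unadjusted p under 0.01 in red. There are 17 red points at PND1, 1 for prenatal arsenic at PND70 and 6 for postweaning arsenic.

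At PND70, after prenatal exposure, 1 of the 200 members was called, against 3.53% of all probes. It was higher, against 2.83%, and 0 were lower, against 0.707%. None passed the adjustment (0.00238% of all probes did), 14 had an unadjusted p below 0.05 (11.0% of all probes), and the smallest adjusted p from limma was 0.263. The median difference was -0.01, with a median size of 0.09, against 0.08 over all probes. The groups did not overlap for 14 members that were higher (13.7% of all probes) and 14 that were lower (6.05%).

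The called member, Z00006468-1, read 2.94, 2.46 and 2.60 in PND70 control and 3.16, 3.28 and 3.01 in PND70 prenatal arsenic livers, without overlap. The difference was 0.48 (standard error 0.15, limma adjusted p = 0.263, 0.00793 to 0.678 over the alternatives). Z00006468-1 passed the unadjusted threshold under 9 of 17 alternatives, and its difference was 0.28 without background subtraction. In postweaning livers it read 2.91, 2.58 and 3.02, across the ranges of both.

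The count was not settled by these arrays. Same-numbered control and prenatal arsenic arrays deviated together, and with the replicate block 8 members were called, 1 higher and 7 lower (3.28% of all probes). Without PND70 control replicate 1, 18 were called, 5 higher and 13 lower, and 8.75% of all probes were. Without prenatal arsenic replicate 3, 5 were called (2.29% of all probes), and without any of the other 4 arrays 0 were (1.62% to 2.89%). With array weights 25 were called, against 16.5% of all probes. In that fit 23 passed the adjustment in limma, for which no share of all probes is given. On the processed ratio 6 were higher (1.69% of all probes) and 0 lower (0.738%), with a median of 0.14 and 176 of 200 above 0, where none passed the adjustment and 22 had an unadjusted p below 0.05 in limma (9.35% of all probes).

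Arsenic given after weaning was compared with the same PND70 control arrays as prenatal exposure. Those arrays also helped to choose the members, so this comparison is not independent of the choice and is biased towards a fall. The counts of lower members are therefore not read as a response. It gave 6 called members, against 4.53% of all probes, 3 higher (3.85%) and 3 lower (0.674%). Without PND70 control replicate 1 the count was 11, against 9.85% of all probes, and without PND70 control replicate 2 or postweaning replicate 1 it was 3 (3.06% and 3.22%). After adjustment limma called 2 members, against 0.895% of all probes, 1 of which was saturated in all postweaning livers, so that 1 remained among members that were never saturated. That count fell to 0 without PND70 control replicate 2 or 3 and without postweaning replicate 1 or 3, where 3, 4, 3 and 4 members passed the unadjusted threshold. It was also 0 in the fit of only the groups compared (16 unadjusted calls, 4.97% of all probes) and with unmoderated variances (3 unadjusted calls, 4.14%). With array weights 37 were called, against 15.4% of all probes. In that fit 26 passed the adjustment in limma, for which no share of all probes is given. The groups did not overlap for 21 higher members (12.8% of all probes) and 28 lower members (4.95%). The median difference was -0.03 on the normalized ratio and 0.10 on the processed ratio, where 7 were higher (2.5%) and 1 lower (0.707%), and none passed the adjustment, with 23 at an unadjusted p below 0.05 in limma (9.39% of all probes).

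Z00018759-1 was the clearest. It read 3.17, 3.02 and 3.00 in PND70 control and 3.48, 3.53 and 3.54 in postweaning livers, and 3.05, 3.13 and 3.15 after prenatal exposure. The postweaning difference was 0.45 (standard error 0.08, limma adjusted p = 0.0224, 0.00111 to 0.140 over the alternatives), and the prenatal difference was 0.04 (standard error 0.08). All 3 postweaning livers lay above the 12 others. It passed the unadjusted threshold under all 16 alternatives and the adjusted one under 9, and on the liver channel alone the difference was 1.04. Its log2 processed liver signal averaged 13.27 in control and 14.36 in postweaning livers, and its reference signal 10.13 and 10.81, so both channels were higher. Over the members, the quantile normalized reference signal differed by more than 0.5 between postweaning and control livers for 22 (11%), against 2.88% of all probes. The liver channel rose by more than 1 for 2 members, and in both the reference rose by more than 0.5. Over the array, 60 probes changed by more than 1 in the liver channel in either direction, and for 25% of them the reference moved the same way by more than 0.5. The reason was not tested.

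Z00023521-1 read 3.07, 3.09 and 2.94 in control and 3.58, 3.37 and 3.46 in postweaning livers, a difference of 0.43 (SE 0.10, adjusted p from limma 0.0612, 0.00519 to 0.238 over the alternatives). After prenatal exposure it read 2.87, 3.08 and 2.99. Here too the postweaning livers lay above all others. Z00055943-1 read 3.60, 3.99 and 4.53 in control and 4.98, 4.88 and 5.36 in postweaning livers, a difference of 1.03 (SE 0.32, adjusted p from limma 0.179, 0.0283 to 0.549), with prenatally exposed livers at 4.28, 5.09 and 4.57, across both ranges. Its controls were widely spread, and the unadjusted threshold was passed under 9 of 16 alternatives. Its log2 processed signal averaged 12.46 in control and 14.45 in postweaning livers, and its reference signal 7.83 and 9.07.

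Z00024586-1 was called lower, with a ratio limited by the scanner's ceiling. It read 6.09, 6.42 and 6.50 in PND70 control, 6.64, 5.94 and 6.48 in prenatal arsenic and 5.43, 5.38 and 4.62 in postweaning livers. The fitted postweaning difference was -1.19 (standard error 0.22, limma adjusted p = 0.0302, 0.00377 to 0.680 over the alternatives). The liver signal of this probe was saturated on all 3 postweaning arrays, on 1 prenatal arsenic array and on no control array. The postweaning ratios are therefore lower bounds, and neither a decrease nor its size was established. Its log2 processed liver signal averaged 18.43 in control and 18.74 in postweaning livers, and its reference signal 12.29 and 13.91. On the liver channel alone the difference was 0.22, opposite in sign (limma unadjusted p = 0.343). The lower recorded ratio thus came with a higher reference signal and with a liver signal at the scanner's ceiling.

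The other 2 lower members rested on the scale. Z00071290-1 read 5.41, 5.67 and 5.90 in control and 5.07, 5.42 and 5.14 in postweaning livers, a difference of -0.45 (SE 0.15, adjusted p from limma 0.218, 0.0150 to 0.857 over the alternatives). Z00023099-1 read 5.11, 4.95 and 4.97 against 4.65, 4.57 and 4.61, a difference of -0.40 (SE 0.13, adjusted p from limma 0.219, 0.0505 to 0.889). Their differences were -0.10 and -0.14 on the processed ratio, where neither was called. The groups overlapped for Z00071290-1 and not for Z00023099-1.

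**Figure D5:**
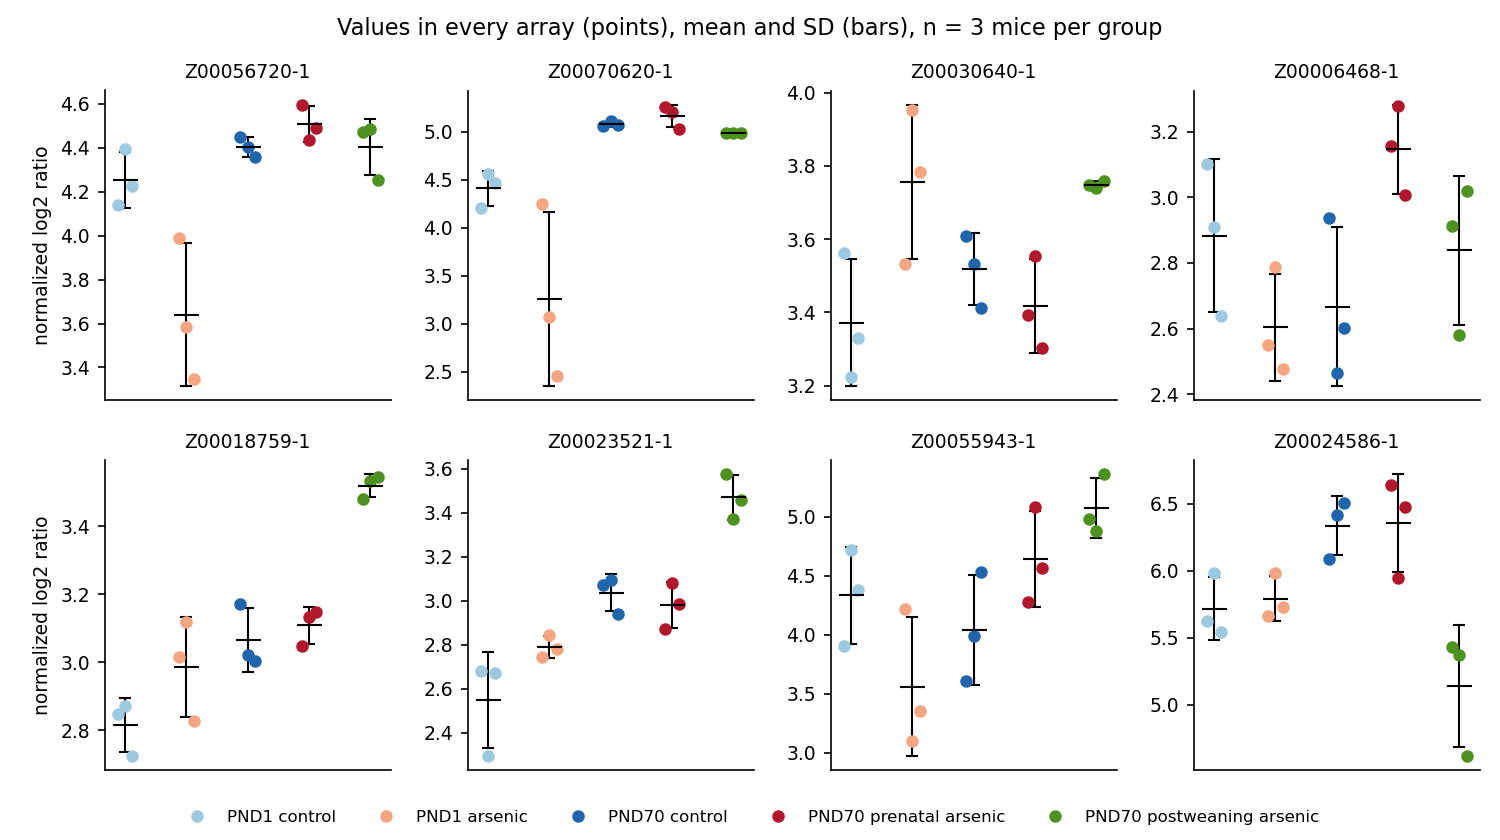
Normalized log2 ratio of 8 probes on each of the 15 arrays (points, vertical axis with its own range in each panel), with the mean and SD of the 3 mice of each group as bars. In Z00018759-1 and Z00023521-1 the 3 postweaning points lie above all 12 others. In Z00024586-1 they are drawn below the others but are lower bounds, because the liver signal was saturated on all 3 arrays.

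The exposed groups were compared with each other at PND70. The difference uses no array of the selection, but the normalization and the estimate of spread drew on all 15 arrays. There 6 of the 200 members differed, against 1.72% of all probes, 5 higher after postweaning exposure (1.08%) and 1 lower (0.636%). None passed the adjustment in limma (0.00476% of all probes did), where 18 had an unadjusted p below 0.05 (6.09% of all probes) and the smallest adjusted p was 0.189. Z00018759-1 and Z00023521-1 were higher after postweaning than after prenatal exposure, by 0.41 (standard error 0.08) and 0.49 (standard error 0.10). Z00024586-1 was the lower call, but its saturation on all 3 postweaning arrays and 1 prenatal arsenic array leaves the direction and size of the difference unmeasured. Without saturated members 5 were higher and 0 lower. The other 3, Z00055649-1, Z00025153-1 and Z00030640-1, were higher by 0.97, 0.51 and 0.33. Without postweaning replicate 2 the count was 3 (1.29% of all probes). The preponderance of higher calls was absent in 2 other fits. When only the groups compared were fitted, 10 were higher and 8 lower (3.42% of all probes called). With array weights 6 were higher and 7 lower (4.20%). In that fit 3 passed the adjustment in limma, for which no share of all probes is given.

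Z00055649-1, the probe placed before Aqp5, read 2.45, 2.30 and 2.91 in prenatal arsenic and 3.44, 3.86 and 3.27 in postweaning livers, without overlap. In PND70 controls it read 2.79, within the first range, and 3.72 and 3.49, within the second, and in PND1 arsenic livers 3.64, 2.57 and 3.55. The prenatal difference from controls was -0.78 (standard error 0.30, limma unadjusted p = 0.0213, adjusted p = 0.351).

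Whether prenatal arsenic acted differently at the 2 ages was tested as the interaction of exposure and age. It passed the unadjusted threshold for 7 of the 200, against 3.17% of all probes, 5 with a more positive effect at PND70 (2.23%) and 2 with a more negative one (0.938%). None passed the adjustment in limma (0.00476% of all probes did), 25 had an unadjusted p below 0.05 (10.9% of all probes) and the smallest adjusted p was 0.220. With the replicate block 11 were called, 5 more positive and 6 more negative (3.15% of all probes), and with array weights 30, 17 and 13 (7.03%). Without PND1 arsenic replicate 1, 9 passed the adjustment, for which no share of all probes is given. The unadjusted count was then 24, against 5.71% of all probes. It was 15 without PND1 control replicate 1 (4.17%) and 1 without PND70 control replicate 2 (2.08%). It was 4 without PND1 control replicate 3, PND1 arsenic replicate 2 or 3, or prenatal arsenic replicate 2 (2.08% to 3.11%). On the processed ratio 27 were more positive at PND70 (1.56% of all probes) and 0 more negative (0.936%), where none passed the adjustment and 62 had an unadjusted p below 0.05 in limma (9.56% of all probes). The processed ratio thus gave a one-sided picture that the normalized ratio did not. No conclusion was drawn from it, because the rule had limited the control age difference on that same ratio.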

How the data were processed

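Total liver RNA of 15 mice (Cy3) and a reference RNA (Cy5) were hybridized to 60-base Agilent arrays. The authors deposited scanner intensity values from Agilent Feature Extraction, mean, background and processed signals of each spot with its flags, with no normalization between arrays; deposited log ratios were not used. Members were ranked on log2 of the processed green over red intensity, averaged per probe. For the tests, normexp (offset 50), quantile normalization of each channel over the 15 arrays, loess (span 0.3) and 1 mean per group were used in limma 3.58.1 (R 4.3.3), tested on simulated data, with 10 residual degrees of freedom. Outlier spots were set missing and saturated spots kept. The members, lists and tests were chosen with earlier results of these data known. Named probes are the 10 highest, up to 3 called per direction and arsenic comparison, the 5 most and 3 least variable and the 3 largest age differences in exposed mice, beside probes at the limits; Z00025825-1, Z00055649-1, Z00025153-1, overlapping probes and those lower in exposed adults were added after their values were seen. Gene lists and cell type markers were left out, because they need gene names. P-values were adjusted over 42006 probes. Same-numbered control and prenatal arsenic arrays deviated together at PND70 (correlations across probes of 0.374, 0.158 and 0.158), which the labels do not explain; at PND1 they did not (-0.339, -0.086 and -0.293). No pair of arrays shared over 0.0428% identical Cy3 signals. With 3 arrays per group, the number of arrays limits the precision.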

Additional observations from a re-analysis of the deposited data

Results flagged for a closer look

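Of the 200 probes, 7 had an effect of prenatal arsenic that differed between PND1 and PND70 at an unadjusted p of 0.01 in limma. This was near the share of all probes, 3.17%, and none passed the adjustment. The test was the interaction of exposure and age on the normalized log2 ratio, PND70 effect minus PND1 effect. It uses the control arrays on which the members were chosen. The interaction was 0.72 for Z00056720-1, 0.66 for Z00021939-1, 0.76 for Z00006468-1, 0.81 for Z00022842-1 and 1.37 for Z00055943-1. It was -0.37 for Z00024720-1 and -0.49 for Z00030640-1. Their adjusted p-values lay between 0.220 and 0.305. Z00021939-1 was saturated on 5 of the 6 PND70 arrays of this test, and 1 PND70 control spot was left out as an outlier, so its value is not an exact difference, and without saturated members the count was 6. Without PND1 arsenic replicate 1, 9 passed the adjustment, for which no share of all probes is given. The unadjusted count was then 24 (5.71% of all probes). Without PND70 control replicate 2 it was 1 (2.08%).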

How the results depend on the processing

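Counts are members called, in the order newborn arsenic, prenatal arsenic at PND70, postweaning arsenic, postweaning against prenatal, age in exposed mice and interaction, where the reported counts were 17, 1, 6, 6, 113 and 7. They were within 1.5 times of these under 9 of 22, 4 of 22, 11 of 21, 13 of 21, 19 of 22 and 13 of 28 alternatives. At an adjusted p of 0.05 they were 0, 0, 2, 0, 123 and 0. With liver channel alone they were 13, 2, 12, 10, 100 and 7, beside 2.27%, 4.31%, 8.26%, 1.69%, 37.4% and 5% of all probes, so that prenatal and postweaning arsenic at PND70 and the interaction lay below the array. With the processed ratio they were 22, 6, 8, 5, 73 and 27, beside 3.11%, 2.42%, 3.21%, 1.49%, 42.6% and 2.5%. Without background subtraction the first 2 were 11 and 0 (3.39% and 3.29% of all probes), and without the quantile step postweaning gave 11 and the interaction 19 (3.78% and 2.33%). Unmoderated variances in a model of exposure and age gave 5, 0, 3, 3, 93 and 1 (2.24%, 2.88%, 4.14%, 1.45%, 39.2% and 2.55% of all probes), and fits of only the groups compared gave 2, 5, 16, 18, 107 and 5 (0.947%, 4.7%, 4.97%, 3.42%, 42.6% and 2.81%). In both, the newborn count was close to the share of all probes. Leaving out the postweaning arrays gave 9, 3, 110 and 4 where it applies (2.56%, 3.14%, 41.4% and 2.8%). Array weights gave 23, 25, 37, 13, 123 and 30, beside 4.16%, 16.5%, 15.4%, 4.20%, 48.5% and 7.03% of all probes. Past an adjusted p of 0.05 they gave 0, 23, 26, 3, 128 and 0. For adjusted counts under the alternatives no share of all probes is given, so they are not set against the array. With an age limit of 0.25 the first 2 were 11 and 3. With 100 members the counts were 8, 0, 4, 2, 66 and 3 of 100. With members chosen on the normalized ratio they were 10, 2, 8, 8, 56 and 8, of which the 56 were 50 higher and 6 lower. For these choices the shares of all probes were those of the reported counts, 3.31%, 3.53%, 4.53%, 1.72%, 43.5% and 3.17%. Leaving out 1 replicate at a time gave 8 to 36, 0 to 18, 3 to 11, 3 to 6, 99 to 124 and 1 to 24, while the share of all probes ran from 2.13% to 7.85%, 1.62% to 8.75%, 2.59% to 9.85%, 0.926% to 2.08%, 36.9% to 40.2% and 2.08% to 5.71%. Leaving out the members saturated on any array, an alternative chosen after seeing the data, gave 16, 1, 5, 5, 107 and 6 of 186. The shares of all probes were again those of the reported counts. Of the 13 differences from control run under the alternatives, those of called probes picked by the naming rule, that of Z00024586-1 after postweaning exposure changed sign, to 0.22 on the liver channel alone, where its reference signal does not enter. Causes of the other shifts were not tested.

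With the replicate block the counts were 16, 8, 12, 10, 114 and 11, beside 3.77%, 3.28%, 4.21%, 1.92%, 42.1% and 3.15% of all probes. By the labels, same-numbered arrays of different groups share only a number, and whether they form a block was not established. Beside the correlations given above, those of deviations were 0.087, 0.505 and -0.265 for control and postweaning at PND70. They were -0.130, -0.004 and -0.277 for prenatal and postweaning, and 0.012, 0.086 and 0.048 for exposed PND1 and PND70 arrays. Depth does not apply to arrays, and the scanner's ceiling limits the 14 saturated members.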
